A study of Mus musculus with 4 samples.

Results

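The genes described here are the fibroblast growth factor (FGF) ligands, their receptors and the genes that feed back on FGF signalling, in dental mesenchymal cells of the mouse incisor. They were given as a list of 37 genes: 22 ligands, 5 receptors and 10 feedback genes. The measure was ATAC-seq, in which a transposase inserts adapters into open chromatin, so that reads pile up over accessible DNA. An open region was assigned to a gene when the protein-coding transcription start site (TSS) nearest to its midpoint was that gene's, or when it overlapped 1 kb either side of such a TSS. By this rule 538 of the 121574 listed regions belonged to these genes. They held 8365 of the 2297892 reads in listed regions (0.364%). Of these regions 203 had at least 10 reads and 29 had 0, with a median of 6 and a maximum of 253. Spry3 has no entry in the annotation used and was not analysed, which left 36 genes, and 35 of them had a region.

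All cells came from incisors of wild-type C57BL/6 mice aged 4 weeks (the strain is written C57BL/6J in the protocol), with no treatment. The 4 samples are sequencing lanes 1 to 4 under 1 library name and share 1 column of values, so there is 1 library, no second group and no replicate check. The labels do not say how many animals were used. No test was therefore made: each read count carries an exact 95% Poisson interval and each share an exact 95% binomial interval, and both cover counting error only. The number of cells in which a region is open and the degree of opening per cell cannot be told apart, and openness is not expression.

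FGF ligands are secreted, bind receptor tyrosine kinases together with heparan sulfate, and drive the RAS and MAP kinase cascade. The cascade switches on its own restraints: Sprouty and Spred proteins act on it upstream, Dusp6 dephosphorylates ERK, and the ETS factors Etv4 and Etv5 are transcribed in response to FGF and carry the signal to target genes. The mouse incisor grows throughout life from epithelial stem cells at its base, and mesenchymal Fgf3 and Fgf10 together with Fgf9 are known to maintain them, while Sprouty genes are known to limit that loop. Fgf11 to Fgf14 bear the family name but stay inside the cell and bind sodium channels, whereas Fgf15, Fgf21 and Fgf23 act as hormones that need Klotho proteins.

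The label of the cells was checked against marker genes, by a rule that calls 64.6% of all protein-coding promoters open. A region overlapped the promoter of 10 of 11 dental mesenchyme markers, all but Barx1, and Msx2 had the most reads of that list, 1061 in all its regions. All 3 odontoblast markers had an open promoter, with 18 reads at Dspp, 9 at Dmp1 and 27 at Nes. So did 6 of 10 dental epithelium markers, near the share over all genes, with 112 reads at the promoter of Ambn. Endothelial markers had 4 open promoters of 5 and glial markers 2 of 4. Lists of 3 to 5 genes are too short to be set apart from the share over all genes. Of 5 leukocyte markers only Lyz2 had one, with 7 reads, although Ptprc had 591 reads in regions away from its promoter. How much other cell types added to the reads of the FGF genes was not tested.

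The regions that carry most of the description below are shown by their central 200 bases, read from the plus strand of RefSeq's GRCm38 (mm10) genome, with exact matches to the motifs searched in capitals. The first group holds the regions with the most reads away from promoters near a Sprouty gene and near each of 2 receptors. Fgfr2 has a further line because its region upstream holds 2 homeobox matches. The region near Spry2 is at chr14:105979461-105980380 and its TEAD match is on the minus strand. That near Fgfr1 is at chr8:25367853-25368560. Those near Fgfr2 are at chr7:129975476-129976537, in the noncoding gene Gm4265, and at chr7:130381602-130382234. The region in Gm4265 carries a tandem array: a 14-base word, AGCGACGCAGTGCT, occurs 4 times in it, and reads from repeated DNA can be placed wrongly. The Spry2 region likewise holds a 14-base word 5 times, outside the bases shown.
Spry2, 83.1 kb upstream: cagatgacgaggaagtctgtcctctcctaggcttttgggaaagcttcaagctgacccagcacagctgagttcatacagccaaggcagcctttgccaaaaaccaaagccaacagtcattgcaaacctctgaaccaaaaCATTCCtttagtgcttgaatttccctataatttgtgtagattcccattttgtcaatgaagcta
Fgfr1, 150.6 kb upstream: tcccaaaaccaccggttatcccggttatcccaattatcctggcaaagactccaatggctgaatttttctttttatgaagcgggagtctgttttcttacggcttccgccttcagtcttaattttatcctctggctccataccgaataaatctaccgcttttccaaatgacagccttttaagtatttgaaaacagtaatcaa
Fgfr2, 290.2 kb downstream: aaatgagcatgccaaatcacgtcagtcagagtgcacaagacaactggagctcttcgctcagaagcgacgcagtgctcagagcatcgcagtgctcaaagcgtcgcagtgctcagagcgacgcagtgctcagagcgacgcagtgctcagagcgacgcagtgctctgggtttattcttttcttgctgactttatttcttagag
Fgfr2, 115.7 kb upstream: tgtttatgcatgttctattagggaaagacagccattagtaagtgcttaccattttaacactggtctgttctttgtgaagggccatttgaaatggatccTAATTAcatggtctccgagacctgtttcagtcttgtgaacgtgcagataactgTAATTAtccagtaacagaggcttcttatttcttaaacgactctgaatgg

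A further group shows the leading regions away from promoters of 4 ligands, 3 of them the ligands best known from the incisor. They lie at chr13:118885829-118886502 for Fgf10, chr14:58300382-58300989 for Fgf9, chr7:144801248-144801504 for Fgf3 and chr11:33070408-33070872 for Fgf18. The Fgf9 region holds a RUNX match on the plus strand and the Fgf18 region a RUNX match on the minus strand. In the Fgf3 region the capitals mark a TEAD match, a homeobox match and a run in which an AP-1 match and a minus-strand TCF/LEF match overlap. The Fgf10 region held no match in the bases shown.
Fgf10, 171.5 kb downstream: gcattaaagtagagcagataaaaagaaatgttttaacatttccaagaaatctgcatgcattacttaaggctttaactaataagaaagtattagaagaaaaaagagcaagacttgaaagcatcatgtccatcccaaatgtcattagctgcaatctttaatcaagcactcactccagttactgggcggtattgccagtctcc
Fgf9, 225.6 kb downstream: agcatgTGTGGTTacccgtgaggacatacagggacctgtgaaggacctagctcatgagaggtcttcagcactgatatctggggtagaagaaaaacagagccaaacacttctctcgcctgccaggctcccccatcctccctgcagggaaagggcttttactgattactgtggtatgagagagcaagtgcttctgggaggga
Fgf3, 37.2 kb upstream: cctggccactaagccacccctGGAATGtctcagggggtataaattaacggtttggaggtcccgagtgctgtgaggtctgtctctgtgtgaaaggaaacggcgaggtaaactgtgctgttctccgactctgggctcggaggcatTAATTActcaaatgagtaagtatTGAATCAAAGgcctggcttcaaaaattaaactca
Fgf18, 76.2 kb downstream: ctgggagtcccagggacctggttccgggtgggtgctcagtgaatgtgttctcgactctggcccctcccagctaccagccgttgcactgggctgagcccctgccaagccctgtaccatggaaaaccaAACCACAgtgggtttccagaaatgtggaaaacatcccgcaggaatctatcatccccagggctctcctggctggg

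The last group shows 3 feedback genes. The region near Dusp6 lies close to its promoter at chr10:99261552-99262130 and is rich in CpG, with 18 CpG in the bases shown. The region near Etv5 is at chr16:22548118-22548697, in an intron of Dgkg, and holds no match. The region near Spred1, at chr2:117019146-117019513, holds a minus-strand TCF/LEF match followed by an AP-1 match.
Dusp6, 1.39 kb upstream: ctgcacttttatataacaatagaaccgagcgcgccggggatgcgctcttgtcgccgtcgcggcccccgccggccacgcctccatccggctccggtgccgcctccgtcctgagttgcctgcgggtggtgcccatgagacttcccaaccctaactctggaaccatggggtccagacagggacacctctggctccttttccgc
Etv5, 108.7 kb upstream: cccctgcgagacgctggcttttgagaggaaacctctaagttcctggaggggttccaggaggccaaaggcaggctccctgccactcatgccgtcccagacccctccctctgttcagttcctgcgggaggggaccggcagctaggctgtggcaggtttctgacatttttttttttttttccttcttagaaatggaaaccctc
Spred1, 102.0 kb upstream: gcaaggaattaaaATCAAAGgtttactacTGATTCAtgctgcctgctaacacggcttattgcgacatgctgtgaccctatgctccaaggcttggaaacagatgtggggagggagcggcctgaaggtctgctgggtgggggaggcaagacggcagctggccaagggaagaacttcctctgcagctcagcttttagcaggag

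Receptors and feedback genes had more reads than most ligands. The 9 feedback genes had a median of 427 reads each, from 48 at Spred3 to 712 at Spry2. The 5 receptors had a median of 264 reads, from 28 at Fgfr4 to 964 at Fgfr2. The 22 ligands had a median of 45.5 reads, from 0 at Fgf21 to 652 at Fgf1. Over all 21827 protein-coding genes the median was 61 reads and the upper quartile 152, which 24.8% of genes exceeded. Above that quartile lay 7 of 9 feedback genes, 4 of 5 receptors and 7 of 22 ligands, so the ligands' share was near the background.

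**Figure D1:**
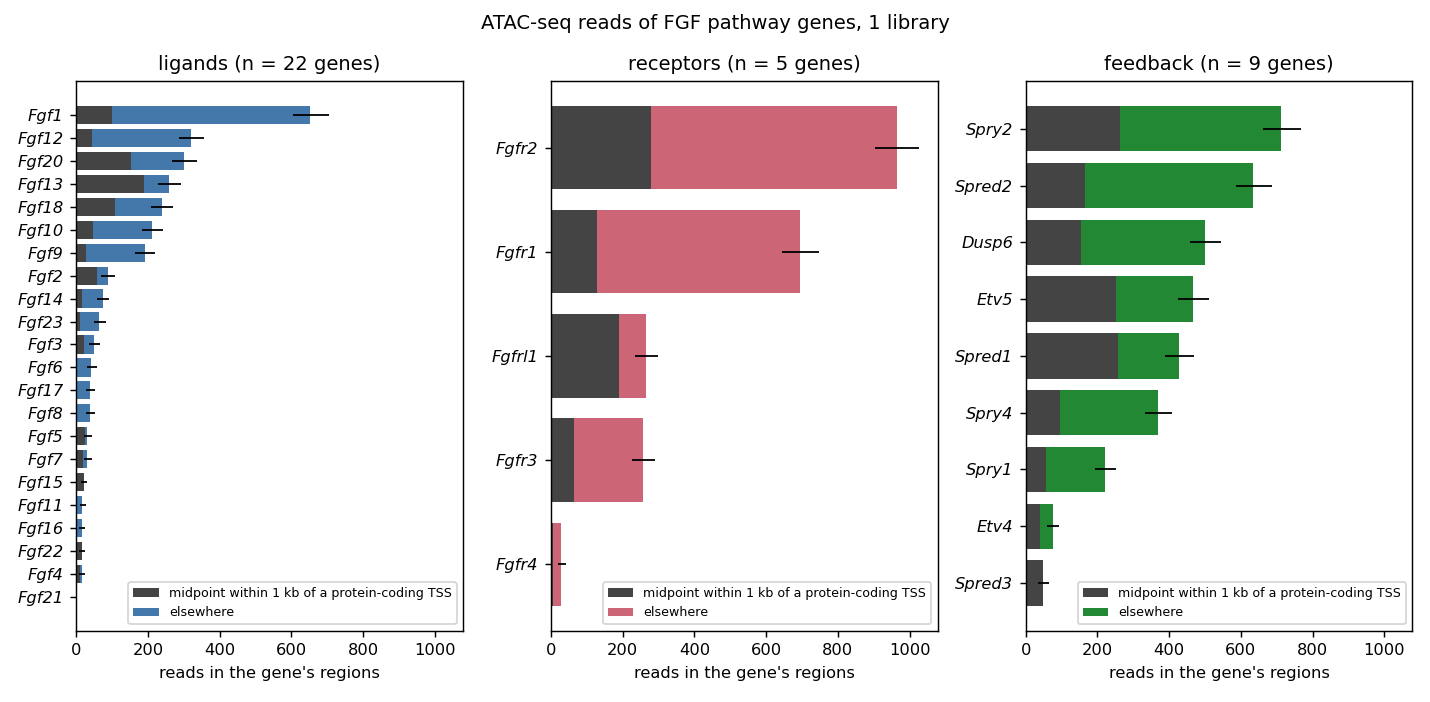
Reads in the regions of each of 36 genes (horizontal axis), in 3 panels by role, with genes ordered by their reads. Dark bars are reads in regions whose midpoint lies within 1 kb of a protein-coding TSS, coloured bars all other reads, and black lines exact 95% Poisson intervals of the sum; Fgfr2 reaches 964 reads, whereas 15 ligands stay below 100.

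The reads of a gene grow with the stretch of genome that lies nearest to it, so each gene was also set against genes with a stretch of like size. Genes were split into 10 span classes of equal number by the length of sequence nearest to their TSSs. Of all genes, 24.9% lay above the upper quartile of their own span class, against 4 of 5 receptors, 6 of 9 feedback genes and 1 of 22 ligands, Fgf1. The median ratio of a gene's reads to the median of its span class was 4.66 for receptors, 2.97 for feedback genes and 0.843 for ligands. Reads per 100 kb of nearest sequence had medians of 339.5 for receptors, 168 for feedback genes and 68.8 for ligands, so receptors rather than feedback genes led on this scale. Fgfrl1 had 6 times the median of its span class with only 37.1 kb nearest to it. Fgfr1, Fgfr2 and Fgfr3 had 4.83, 4.66 and 4.43 times theirs, and Fgfr4 0.636 times. The value of Fgfr2, which is also the receptor median, rests on 964 reads, of which 160 lay at the promoter of Ctbp2. The ratio without those reads was not counted. Seen this way, the large sums of Fgf12 and Fgf13 came with long stretches: Fgf12 had 924 kb and 1.55 times the median of its span class, and Fgf13 761 kb and 1.25 times. Fgf16 was the 1 gene below the lower quartile of its span class, with 15 reads over 214 kb.

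**Figure D2:**
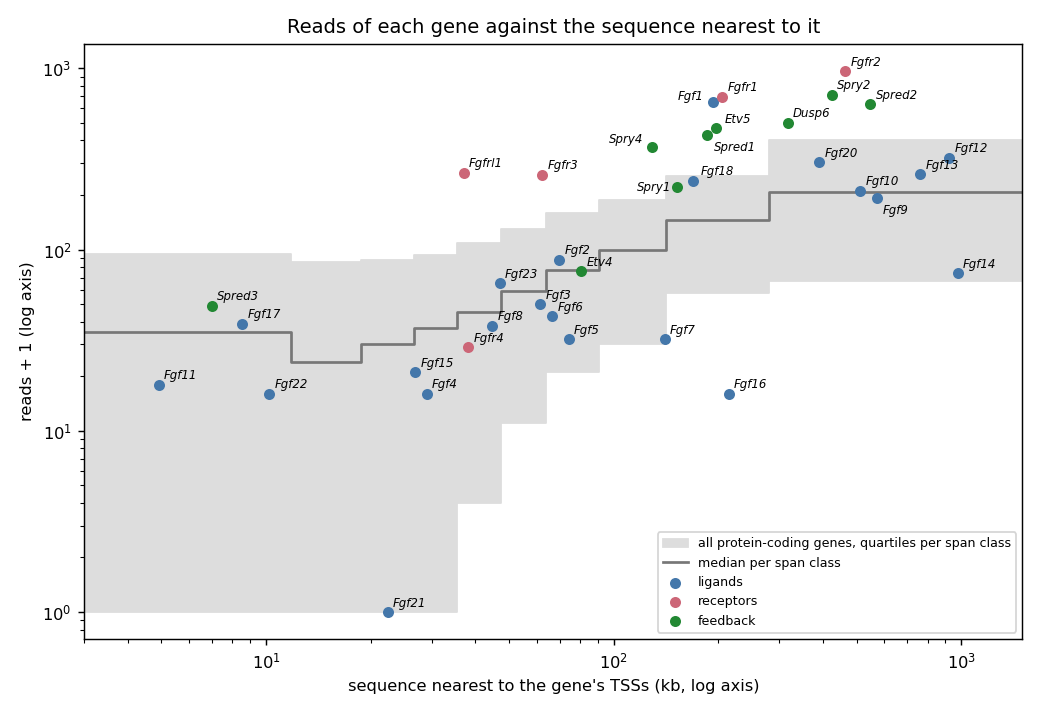
Reads plus 1 of each gene (vertical log axis) against the length of sequence nearest to its TSSs in kb (horizontal log axis), coloured by role. The grey steps span the quartiles and the line the medians of all protein-coding genes in 10 span classes, with the axis ending inside the first and the last class; 4 receptors and 6 feedback genes lie above the grey steps, and 1 ligand, Fgf1, does.

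A promoter counted as open when a listed region overlapped 1 kb either side of a TSS. That held for all 5 receptors, all 9 feedback genes and 18 of 22 ligands, against 64.6% of all protein-coding genes. Promoters rich in CpG are open in most tissues, so the genes were split by the CpG content of their promoter. Of genes with a CpG-rich promoter 94.9% were open, and so were 11 of 12 ligands, 5 of 5 receptors and 8 of 8 feedback genes of that kind. Without CpG richness 35.2% of all genes were open, against 7 of 10 such ligands and the 1 such feedback gene, Spred3. The rule asked for no minimum of reads, here or over all genes. Of these ligands Fgf23 had 9 promoter reads, and the midpoint of the Fgf11 region lay 1.047 kb upstream. The region of Spred3 is nearest to Ggn and overlaps only the edge of the Spred3 window. CpG-rich Fgf16 counted as open with 2 reads. The CpG-rich exception was Fgf8, an early epithelial signal of tooth development: its 3 regions, with 37 reads, all lay downstream of its start. The other ligands with no region at the promoter were Fgf6, Fgf17 and Fgf21.

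Among the paracrine ligands, Fgf1, which can bind every FGF receptor, had the most reads. It had 652 reads (603 to 704) in 37 regions on chromosome 18, more than 98.6% of all genes by rank. Of these reads 84.7% lay over 1 kb from every TSS, and the leading regions away from promoters had 68 reads 23.5 kb downstream and 64 reads 5.602 kb downstream. Both lie in introns of Arhgap26, whose gene overlaps Fgf1, so the nearest TSS may not be the gene they act on.

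Fgf10, a mesenchymal ligand that signals to the incisor epithelium, had 210 reads (183 to 240) in 20 regions. Its 4 promoter regions held 46 reads and the largest of these 14 reads (7.65 to 23.5). A single intergenic region 171.5 kb downstream held 57 reads (43.2 to 73.9), more than all promoter regions of the gene together, though the intervals of 57 and 46 overlap. That region stood at percentile 97.6 among regions away from promoters, whereas the leading promoter region stood at percentile 50.03 among promoter regions. Without regions over 100 kb from the TSS the gene had 104 reads, and without regions of fewer than 10 reads 135.

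Fgf9 showed the same order of region sizes. It had 191 reads (165 to 220) in 26 regions, of which 28 were at its promoters and 46 (33.7 to 61.4) in the intergenic region 225.6 kb downstream. The interval of that region's 46 reads overlaps the interval of the 25 reads (16.2 to 36.9) in the leading promoter region. Most of the sum came from far off: 38 reads remained within 100 kb of the TSS. Fgf9 lies beside a stretch of 574 kb that is nearest to it, and its reads were 0.923 times the median of its span class.

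Fgf3, the other mesenchymal ligand of the incisor, had 49 reads (36.3 to 64.8) in 5 regions. Its leading promoter region and the region 37.2 kb upstream had 17 reads each. Fgf3, Fgf4 and Fgf15 lie next to each other on chromosome 7 between 144838083 and 144900953. Fgf4 had 15 reads and Fgf15 20 reads, so no gene of the cluster reached the median of all genes. A regulatory region may serve any gene of such a cluster, and assignment by the nearest TSS does not tell which.

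Fgf18 and Fgf20 were the paracrine ligands with the most reads at midpoints within 1 kb of a TSS. Fgf18, a ligand known from bone and cartilage, had 238 reads (209 to 270), with 102 in the promoter region and 43 in the region 76.2 kb downstream. Fgf20, a close relative of Fgf9 known as an epithelial signal of the tooth, had 301 reads (268 to 337). However, 148 of these lay at an annotated start within 1 kb of the TSS of Micu3, and the start of Fgf20 that is 21.4 kb further along had 4 reads. With the start beside Micu3 left out, an alternative chosen after seeing the data, Fgf20 had 128 reads.

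Of the remaining paracrine ligands, Fgf2 had 87 reads, of which 51 were in its leading promoter region. Fgf6 had 42, Fgf17 38, Fgf5 and Fgf7 31 each, and Fgf16 and Fgf22 15 each. Fgf7, a mesenchymal ligand that acts on epithelium, had 19 promoter reads. In Fgf6 a region 19.1 kb upstream held 34 of the 42 reads. All 7 sums are below the median of genes that had a region, 92 reads, and in each the leading region held most of the reads.

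The endocrine ligands had few promoter reads. Fgf23, the bone-derived phosphate hormone, had 64 reads (49.3 to 81.7), of which 9 were at the promoter and 26 in a region over its own coding exon, 7.23 kb downstream of the TSS. Fgf15 had 20 reads, all at its promoter, and Fgf21 had no region among those listed. Fgf6 and Fgf23 lie close together on chromosome 6.

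The intracellular factors ranged widely. Fgf12 had 320 reads (286 to 357) in 28 regions, Fgf13 259 (228 to 292) in 12, Fgf14 73 (57.2 to 91.8) in 6, and Fgf11 17 (9.90 to 27.2) in 2. In Fgf12 only 35 reads lay in its leading promoter region. The region of Fgf12 with the most reads away from promoters had 27 reads, in an intron of Mb21d2, its neighbour, at chr16:28840178-28840478. In Fgf13 the order was the other way, with 188 reads at promoters and 71 elsewhere.

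Several genes have starts far apart, and the reads fell on some of them. Fgf13 had 85 reads (67.9 to 105) at its first start, no region at the start in the middle and 103 (84.1 to 125) at the last. Fgf1 had 75 and 77 reads at its 2 starts nearest the 5' end and no region at the other 2. Etv5 had 251 reads (221 to 284) at its first start and no region at the start 3.21 kb downstream. Fgf12 had 9 reads (4.12 to 17.1) at the first start and 36 (25.2 to 49.8) at the later one, and these intervals do not overlap. Fgf14 had 16 reads at the later start only, and Fgfr1 had 129 at the first only.

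**Figure D3:**
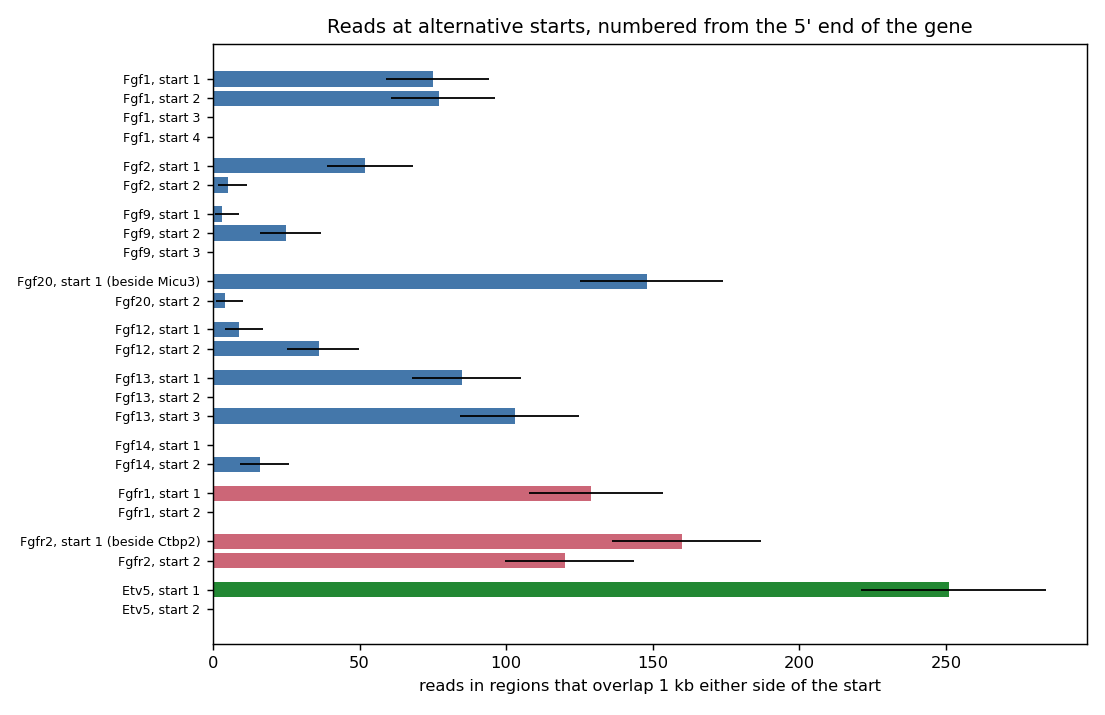
Reads in regions that overlap 1 kb either side of each group of annotated starts (horizontal axis), for the genes with starts in over 1 group, numbered from the 5' end of the gene. Bars are coloured by role and black lines are exact 95% Poisson intervals, drawn where a region is listed; Etv5, Fgfr1 and Fgf14 have reads at 1 start only, and the starts beside Micu3 and Ctbp2 are named.

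Among the receptors Fgfr2, which carries epithelial and mesenchymal splice forms, led with 964 reads (904 to 1027) in 66 regions, more than 99.6% of genes by rank. Of these, 160 reads (136 to 187) lay at a start 2857 kb from its usual starts, at the promoter of Ctbp2, where a read-through transcript model begins. Without it Fgfr2 had 804 reads. Its usual starts had 120 reads (99.5 to 144). The region 290.2 kb downstream had 154 reads (131 to 180) and carries the tandem array shown above, and the region 115.7 kb upstream had 76 (59.9 to 95.1). Within 100 kb of its TSSs, the Ctbp2 start included, Fgfr2 had 476 reads, fewer than Fgf1, Spry2 and Spred2 by the same limit. When each gene was given its outermost start alone, Fgfr2 was left with the start at Ctbp2 and 250 reads, which are nearest to or at that start and not at the usual starts.

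Fgfr1, a receptor of mesenchymal tissues, had 695 reads (644 to 749) in 33 regions. Its promoter held 129 reads, and 566 lay elsewhere, nearly all upstream. The regions 150.6, 128.5 and 100.2 kb upstream had 112 reads (92.2 to 135), 56 reads (42.3 to 72.7) and 74 reads (58.1 to 92.9). Only 57 reads lay in its own introns. Within 100 kb of its TSSs Fgfr1 had 375 reads.

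Fgfrl1, a receptor-like protein that lacks the kinase domain, showed the opposite layout. It had 264 reads (233 to 298), of which 190 (164 to 219) were in 1 promoter region at chr5:108693885-108695201, 1317 bp wide. Fgfr3 had 257 reads (227 to 290), with 56 in its leading promoter region and 57 in a region 29.2 kb upstream. Fgfr4 had 28 reads (18.6 to 40.5) in 4 regions, of which 5 were at its promoter. Fgfr4 was thus the 1 receptor below the median of all genes, and its interval overlaps with that of no other receptor.

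Summed over the receptors, 52.4% of the reads away from promoters lay over 100 kb from the nearest TSS. The value was 26.4% for ligands, 24.2% for feedback genes and 25.8% for all regions. All 808 receptor reads at that distance were in regions of Fgfr1 (320) and Fgfr2 (488), so the share describes those 2 genes rather than receptors in general.

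Each of the 9 feedback genes had its region with the most reads at a promoter, which for Spred3 is that of Ggn. Away from promoters lay the leading region of 3 of 5 receptors and 9 of the 21 ligands with a region, against 33.0% of all genes with a region. Some of these leads, in either direction, lie within counting error. Fgfr3 had 57 reads (43.2 to 73.9) away and 56 (42.3 to 72.7) at its promoter. Fgfr2 had 154 (131 to 180) away and 134 (112 to 159) at the promoter of Ctbp2. Spry1 had 36 (25.2 to 49.8) away and 44 (32.0 to 59.1) at its promoter. The largest feedback promoter regions were those of Spred1 with 253 reads (223 to 286), Etv5 with 251 (221 to 284) and Spry2 with 239 (210 to 271). Spred2 had 155 (132 to 181) and Dusp6 152 (129 to 178). The others were smaller, with 94 reads at Spry4, 48 at Spred3, 44 at Spry1 and 37 at Etv4. That of Etv4 stood at percentile 64.7 of promoter regions. The median promoter region, whatever its CpG content, had 14 reads. Those of Spred1, Etv5 and Spry2 stood at percentiles 97.5, 97.5 and 97.1 of promoter regions, and their intervals overlap.

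Spry2, a Sprouty gene that restrains FGF signalling in the tooth, had 712 reads (661 to 766) in 24 regions. Next to the 239 reads of its promoter stood the intergenic region 83.1 kb upstream with 169 reads (145 to 197), the most of any region of these genes away from promoters. A region 2.09 kb upstream, at chr14:105898710-105899100, had 88 reads (70.6 to 108). Spry4 had 369 reads (332 to 409), with 94 in its promoter region and 58 and 57 in regions 30.3 kb upstream and 58.7 kb downstream. Spry1 had 220 reads (192 to 251), with 44 in its promoter region and 36 in a region 23.2 kb upstream. The sums of the 3 Sprouty genes had intervals that do not overlap. The nearest sequence was 424 kb for Spry2, 129 kb for Spry4 and 152 kb for Spry1. Against the median of its span class Spry2 had 3.44 times the reads, Spry4 3.765 and Spry1 1.53, so Spry2 did not lead on this scale.

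Spred2, a Sprouty-related inhibitor of RAS signalling, had 634 reads (586 to 685) in 54 regions. Its promoter region had 155 reads, the region 4.07 kb upstream, at chr11:19919929-19920676, 93 (75.1 to 114) and that 74.8 kb upstream 49. Spred1 had 427 reads (388 to 470), of which 253 were in its promoter region and 48 (35.4 to 63.6) in the region 102.0 kb upstream. Spred3 had 48 reads in a single region that is nearest to Ggn and overlaps only the edge of the Spred3 window. By nearest TSS alone Spred3 had no region.

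Dusp6, the ERK phosphatase, had 500 reads (457 to 546) in 27 regions, with 152 in its promoter region and 84 (67.0 to 104) in the region 1.39 kb upstream. Etv5 had 467 reads (426 to 511): 251 at its promoter, 61 (46.7 to 78.4) in the region 108.7 kb upstream and 34 in its own intron 7.43 kb downstream. Its partner Etv4 had 75 reads (59.0 to 94.0), with 37 in its promoter region and 15 in the leading region elsewhere. Etv5 thus had far more reads than Etv4 and their intervals do not overlap. The nearest sequence was 197 kb for Etv5 and 80.7 kb for Etv4.

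**Figure D4:**
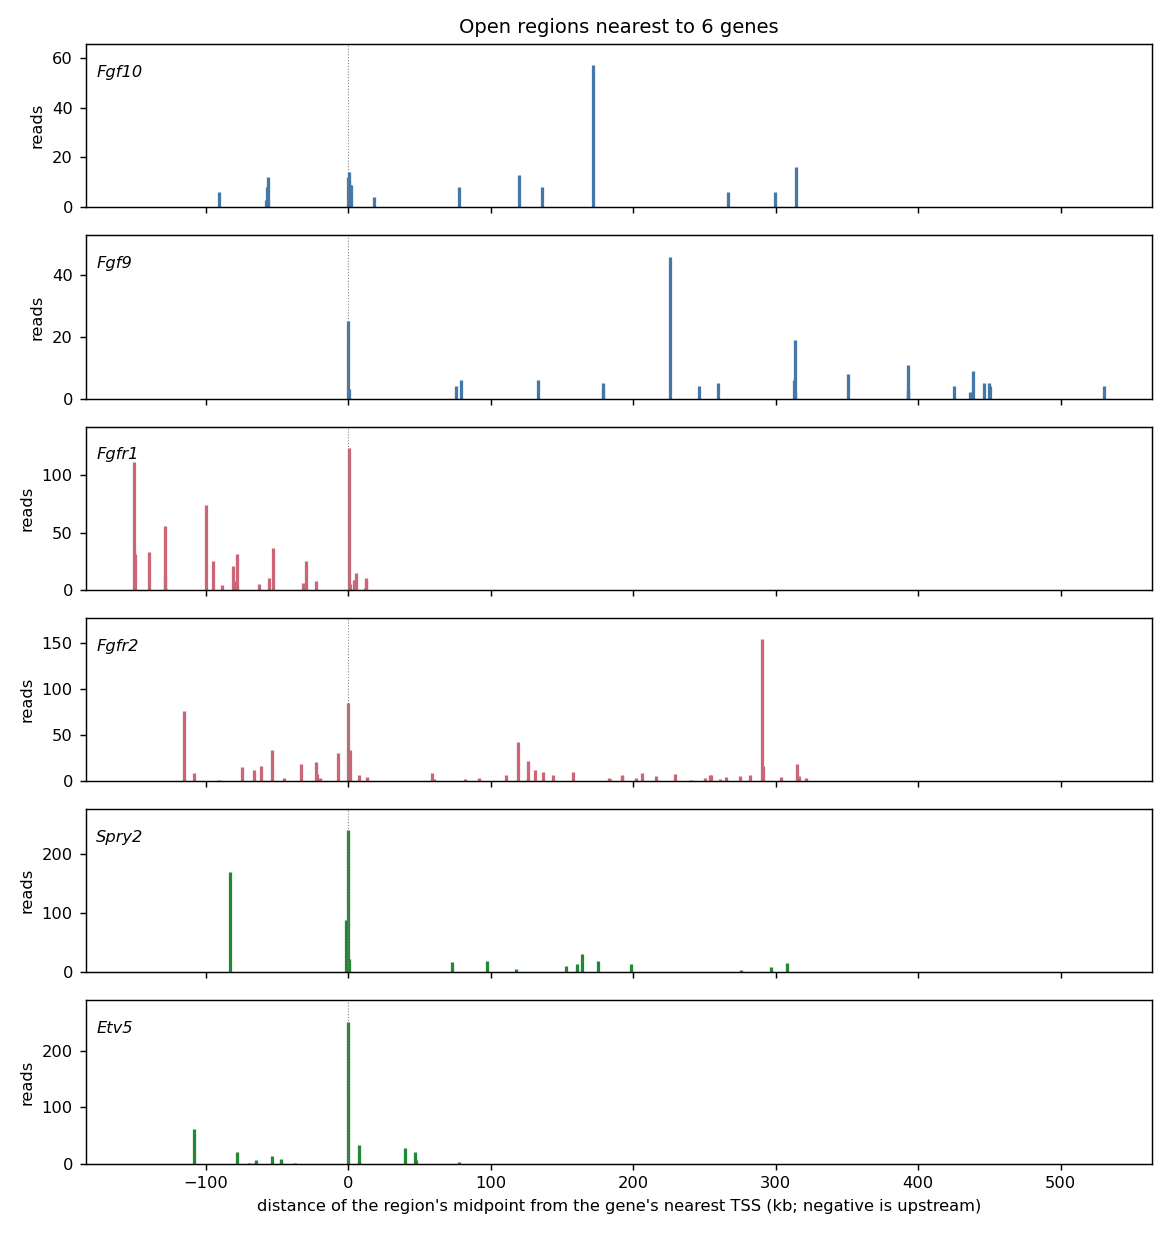
Reads of each region nearest to Fgf10, Fgf9, Fgfr1, Fgfr2, Spry2 and Etv5 (vertical axes, each with its own scale) against the distance of its midpoint from the gene's nearest TSS in kb (horizontal axis, negative upstream). The tallest line lies away from the TSS in Fgf10 (57 reads), Fgf9 (46) and Fgfr2 (154), and at the TSS in Fgfr1 (124), Spry2 (239) and Etv5 (251); regions nearest to Ctbp2 are not drawn.

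The share of reads in regions away from promoters was 68.3% (66.5 to 70.0) for ligands, 69.8% (67.8 to 71.7) for receptors and 61.5% (59.9 to 63.2) for feedback genes. Over all regions it was 49.4%, below the value of each role. The median nearest sequence was 72.0 kb for ligands, 62.4 kb for receptors and 186 kb for feedback genes, against 47.4 kb for all genes. These shares were not set against span classes. The roles could not be ordered among themselves, since single genes moved the shares. Without Fgf1 the ligand share was 63.1% (61.0 to 65.2) and without Fgfr1 the receptor share was 64.4% (62.0 to 66.9), and both intervals overlap that of feedback genes. Introns held 38.0% of ligand reads, 11.4% of feedback reads, 4.71% of receptor reads and 20.4% of all reads. Fgf1 alone supplied 552 of the 1028 ligand reads in introns, all of them inside Arhgap26, and without it the ligand share in introns was 23.2%.

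Motifs were sought in the 300 bases around the midpoint of regions with at least 10 reads, as exact matches on both strands. The words were TGANTCA for AP-1, TGTGGTT for RUNX, TAATTA for homeobox factors, GGAATG for TEAD, CTTTGAT for TCF/LEF, CCGGAAGT for ETS and TGACGTCA for CRE, with the CTCF motif as well. Of these 8 motifs none contains another, though matches can overlap. Away from promoters the RUNX word was in 28 of 166 regions, 16.9% (11.5 to 23.5), against 10.99% of 33718 regions of that kind. These 28 regions belonged to 18 genes, with 4 near Fgf1 and 3 near Spry2, and regions of 1 gene are not independent. By role it was in 12 of 63 ligand regions, 13 of 63 feedback regions and 3 of 40 receptor regions.

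The other words were near their shares over all regions. Homeobox words were in 31 regions (18.7% against 17.8%), TEAD words in 36 (21.7% against 19.8%), AP-1 words in 14 (8.43% against 10.2%) and TCF/LEF words in 10 (6.02% against 4.65%). ETS, CRE and CTCF matches were in none of the 166 regions, where 0 matches allow up to 2.20%, and the shares over all regions were 0.457%, 0.359% and 0.617%. In 37 promoter regions the ETS word was also in none, against 5.94% of 13666 promoter regions, a share inside the interval of 0 to 9.49%. TEAD words were in 5 promoter regions (13.5% against 9.82%) and the TCF/LEF word in 1 (2.70% against 1.54%). The AP-1, RUNX, homeobox and CRE words were in none, against 3.56%, 2.63%, 1.63% and 2.51% of promoter regions, all inside the same interval, as was the CTCF motif. These are matches of letters and show no binding.

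Other genes of the pathway were counted from lists, beside 64.6% of all genes with an open promoter and 24.8% above the upper quartile. Of 17 co-receptor and heparan sulfate genes 16 had an open promoter and 11 lay above the upper quartile of all genes, with a median of 261 reads. Sulf1, which trims heparan sulfate, had 844 reads with 801 kb nearest to it, and Ext1, which builds its chains, 759 with 586 kb. For Klb, the co-receptor of Fgf21, no region was listed. Of 14 adaptor and cascade genes 13 had an open promoter and 6 lay above the quartile, with a median of 127.5 reads. Gab1 led with 371 reads, and no region was listed for Map2k1. Of 13 further modulators and targets 10 had an open promoter and 9 lay above the quartile, with a median of 264 reads. Flrt3 and Flrt2, membrane proteins that bind FGF receptors, had 822 and 800 reads, with 1253 kb and 3207 kb of nearest sequence. Cbl had no listed region. A gene without a listed region is not shown to be closed. By median reads, without regard to span, the ligand genes were the lowest of all the FGF lists described. The other lists were not set against span classes.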

How the data were processed

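ATAC-seq was measured in 1 library over 4 lanes. Per the labels' protocols, BWA-MEM aligned the reads (mm10), and MACS2 peaks went to HOMER; per the submitters' processing notes, STAR 2.6.1d and Partek were also used. Removal of duplicates, transposase shifting and the libraries on which regions were called are not given in the sources used here. The authors deposited a table of CPM per region and a table of expected counts for 16382 regions. Reads were taken as the deposited CPM divided by the smallest value of the column (0.0484, the value of 1 read) minus 1: 99.94% of regions came out whole within 0.05 reads. The 106 regions of these genes in the deposited expected count table held the same numbers. 1 value column belongs to no sample here and was not used.

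TSSs were those of protein-coding transcripts in GENCODE vM21 (basic). The listed regions held 2297892 reads in all, with a median of 7 per region, and reads outside them were not counted. As 25750 regions begin where another ends, 1 open stretch can be split. A promoter was CpG-rich when the 500 bp either side of its TSS had at least 0.6 observed over expected CpG and 50% GC. Members given in full were the 3 with the most and the 1 with the fewest reads per role, plus Fgf3, Fgf9 and Fgf10. Members and lists were chosen with earlier results of these data known. The CpG classes, span classes, groups of starts and repeated words were added after the files were opened. Scripts ran in Python 3.11.15 with pandas 2.3.3, scipy 1.17.1 and pysam 0.24.0, and were tested on simulated data. Alternatives were other windows, minimum reads, distance limits, assignments and starts.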

Additional observations from a re-analysis of the deposited data

How the results depend on the processing

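The order of the medians, ligands below receptors below feedback genes, was kept with regions of at least 10 reads, regions within 100 kb, regions nearest to the gene only, assignment from the region's edge, the outermost start alone and the starts beside Ctbp2 and Micu3 left out. Per 100 kb of the sequence nearest to the gene it changed, to 68.8 for ligands, 339.5 for receptors and 168 for feedback genes. By the single region with the most reads the medians kept their order, at 26, 124 and 152. The feedback median was 380 with regions of at least 10 reads and 369 within 100 kb. The share of reads away from promoters was 64.9%, 65.9% and 56.7% for ligands, receptors and feedback genes with regions of at least 10 reads, 77.7%, 72.3% and 70.8% with a promoter window of 500 bp, and 63.8%, 68.6% and 57.0% with 2 kb. It was 63.1% for ligands without Fgf1 and 64.4% for receptors without Fgfr1, both chosen after seeing the data. Open promoters numbered 16 to 19 of 22 ligands with windows of 500 bp and 2 kb and 15 with regions of at least 10 reads. A window of 500 bp left out Spred3. With regions of at least 10 reads 4 of 5 receptors were open, all but Fgfr4. The share over all genes was not counted with these settings. The 64.6% given above holds for the 1 kb window without a minimum of reads. Of single genes, 20 of 36 moved by more than their counting interval with regions of at least 10 reads, 12 within 100 kb, 4 with the outermost start alone and none when distance was taken from the region's edge. Fgf13 kept 117 reads at its outermost start, Fgf12 167 within 100 kb and Fgf14 45, while Fgf4 had no region of at least 10 reads. No paired analysis was possible because the 4 lanes share 1 column of values. Leaving out each lane and another library scaling were not run for the same reason. At this depth the counting intervals of the ligands with 15 to 20 reads overlap one another, so no order among them can be read.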
